A study of Mus musculus with 39 samples.

Results

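White fat of roxadustat-treated mice with induced polycystic ovary syndrome (PCOS) was compared with white fat of vehicle-treated control mice. The 2 deposited white fat tables were joined on gene ID, which gave 24780 genes listed in both, and 15499 of these passed a filter on low reads and were tested. Of the 39 libraries of the series 9 entered the comparison, 5 from the roxadustat arm (mice 764, 767, 782, 795 and 809) and 4 from the control arm (mice 778, 779, 789 and 802). Values per library are given in this order of mice. Protein-coding genes and processed pseudogenes, which are copies of spliced messages reinserted into the genome, are described apart.

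All mice had the C57Bl6/J background. In the roxadustat arm the PCOS model was made with letrozole before puberty, and roxadustat was given by mouth from an age of 12 weeks for 6 weeks. Control mice received vehicle, and a further arm of 6 PCOS mice received vehicle. The labels give neither the fat depot nor the letrozole dose. Since roxadustat mice differ from control mice in letrozole and in roxadustat together, the 2 treatments cannot be told apart in this comparison, and PCOS vehicle levels (6 mice) are printed beside some genes for orientation. Each library is 1 mouse.

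White adipocytes store triglyceride and release hormones such as leptin and adiponectin into the blood, and they lie among fibroblasts, vessels, macrophages and, in visceral depots, a mesothelial covering. Letrozole inhibits aromatase, the enzyme that turns androgens into oestrogens. Roxadustat inhibits the prolyl hydroxylases (Egln enzymes) that lead to the breakdown of hypoxia-inducible factor (HIF), and HIF is known to raise genes of glycolysis, vessel growth and iron handling.

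The 9 libraries held 14774573 to 18953324 reads. The authors' level is FPKM, which divides fragments by gene length and by library size. The library size implied by the FPKM values was larger than these reads. It was 1.36 to 1.58 times the reads in roxadustat mice and 1.26 to 1.41 times in control mice. Which size the authors used is not given. Mitochondrially encoded genes took 13.6, 7.85, 11.1, 6.60 and 7.97% of reads in roxadustat mice, against 18.4, 11.4, 20.7 and 21.6% in control mice (means 9.42 ± 2.86 and 18.02 ± 4.62, SD, n = 5 and 4). The difference of -8.60 percentage points gave a two-sided exact permutation p of 0.0317, where 0.0159 is the smallest p possible. Roxadustat mouse 764 and control mouse 779 overlapped. Genes with at least 1 read numbered 20519 ± 1064 in roxadustat mice and 18852 ± 1341.5 in control mice. The difference of 1667 genes did not pass the test (two-sided exact permutation p = 0.111). Roxadustat mouse 782 and control mice 778 and 789 stood apart with 908, 928 and 580 genes of 1 to 3 reads, against 2095 to 3610 in the other 6 libraries.

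Levels also differed by gene length. Among protein-coding genes the median log2 difference, roxadustat minus control, was -0.45 for 258 genes under 1000 bases, -0.20 for 1408 genes of 1000 to under 2000 bases, -0.03 for 4111 genes of 2000 to under 4000 bases and 0.10 for 7668 genes of 4000 bases and over. Genes under 1000 bases deviated most in roxadustat mouse 782, with a median of -0.73, and in control mouse 802, with a median of 0.66. Where removing this trend from each library ended the call of a gene chosen for its difference or from a gene list, this is given beside the gene, and the part of gene length in the results was not tested further.

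**Figure D1:**
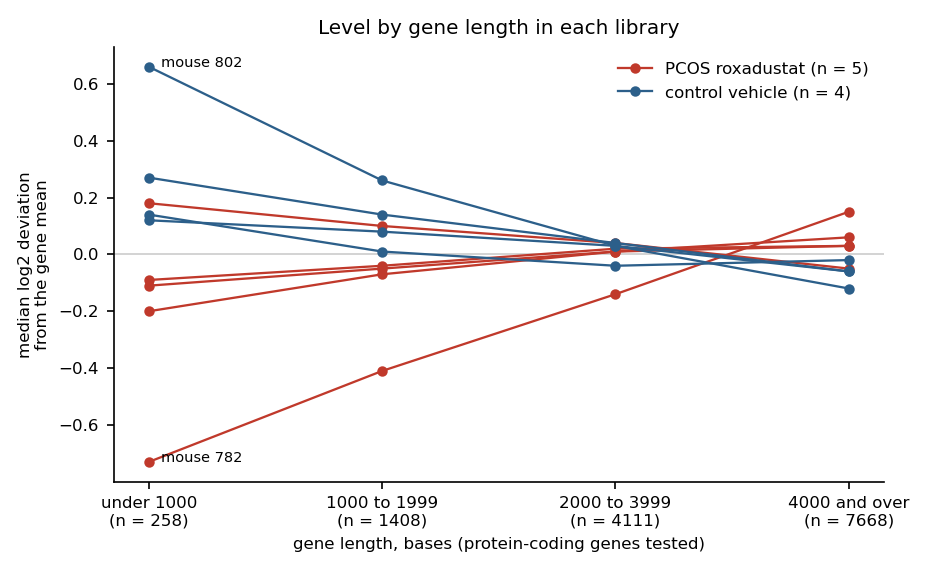
Median log2 deviation of a library from the mean of the 9 libraries (vertical axis) for protein-coding genes in 4 bins of gene length in bases (horizontal axis), with 1 line for each of 5 PCOS roxadustat (red) and 4 control vehicle (blue) mice. Mouse 782 lies at -0.73 and mouse 802 at 0.66 for genes under 1000 bases, and for genes of 4000 bases and over the libraries run from -0.12 (mouse 802) to 0.15 (mouse 782).

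Differences were found in 897 genes at an adjusted p under 0.05, which is 5.79% of the 15499 tested. Of these, 486 were higher and 411 lower in roxadustat mice, and the arms did not overlap in 810 of them. Arms that did not overlap occurred in 12.3% of all genes tested. The test was limma on log2(FPKM + 0.5) with Benjamini-Hochberg adjustment over all genes, and 4131 genes had an unadjusted p under 0.05. Scaling by total reads called 806 genes higher and 370 lower. The number of calls depended on single libraries. Without roxadustat mouse 764 it was 1771. It was 290 without mouse 767, 160 without mouse 795 and 100 without mouse 809. Without control mice 778, 779 and 802, each in turn, it was 213, 265 and 312. With the PCOS vehicle libraries in the same fit 79 genes were called, 14 higher and 65 lower.

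The share of calls differed by kind of gene. Among 13445 protein-coding genes 742 were called, which is 5.52%, with 446 higher (3.32%) and 296 lower (2.2%) and a median log2 difference over all of them of 0.04. Among 522 processed pseudogenes 75 were called, which is 14.4%, with 21 higher (4.02%) and 54 lower (10.3%) and a median of -0.15. Of 1532 genes of other kinds 80 were called, 5.22%, with 19 higher (1.24%) and 61 lower (3.98%). Arms that did not overlap occurred in 12.6% of protein-coding genes, 17.4% of processed pseudogenes and 8.16% of the others.

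The 10 largest rises among protein-coding genes whose arms did not overlap were Sfrp5, Mmp12, Mest, Serpina3b, Prelp, Plppr4, Ctss, Folh1, Rpl24 and Gpc1. Sfrp5 (ENSMUSG00000018822, chromosome 19, 42186410 to 42190691, mm39), which encodes the secreted frizzled-related protein 5, had 4.53, 42.9, 55.1, 26.7 and 81.9 FPKM in roxadustat mice, against 0.508, 1.09, 0.697 and 1.26 FPKM in control mice. Every roxadustat mouse lay above every control mouse, although mouse 764 was far below the other 4 roxadustat mice. The log2 difference was 4.50 (SE 0.65, limma adjusted p = 0.0123), and PCOS vehicle mice averaged 60.8 ± 47.3 FPKM. Mest (ENSMUSG00000051855, chromosome 6, 30723546 to 30748464, mm39), an imprinted gene that is high in expanding fat, had 5.50, 29.4, 104, 7.58 and 68.7 FPKM in roxadustat mice and 1.46, 3.42, 1.95 and 2.83 FPKM in control mice (log2 difference 3.17, SE 0.76, adjusted p = 0.0396). Its roxadustat values lay far apart from each other, all above the control values, and PCOS vehicle mice averaged 52.4 ± 41.4 FPKM. Mest shares its locus with the microRNA gene Mir335 on the same strand and with Copg2 on the other strand, so part of its reads is uncertain.

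Prelp (ENSMUSG00000041577, chromosome 1, 133838042 to 133849152, mm39), a leucine-rich matrix proteoglycan, had 49.1, 140.2, 178, 153 and 202 FPKM in roxadustat mice and 16.96, 27.3, 29.3 and 24.0 FPKM in control mice. The arms did not overlap, the log2 difference was 2.43 (SE 0.36, adjusted p = 0.0123), and PCOS vehicle mice averaged 141 ± 73.2 FPKM. Mmp12, the macrophage elastase, had 0.983, 12.5, 5.55, 8.72 and 9.43 FPKM in roxadustat mice and at most 0.187 FPKM in control mice, where mouse 778 was listed at 0 (log2 difference 3.53, adjusted p = 0.0123). Serpina3b, a serine protease inhibitor gene with close paralogs, averaged 7.63 ± 5.82 in roxadustat mice and 0.657 ± 0.540 FPKM in control mice (SD, n = 5 and 4). Plppr4, a phospholipid phosphatase-related membrane protein, averaged 3.50 ± 1.64 in roxadustat mice and 0.385 ± 0.172 FPKM in control mice. Folh1, a folate hydrolase, averaged 6.65 ± 3.54 in roxadustat mice and 1.17 ± 0.586 FPKM in control mice, and Gpc1, a cell surface heparan sulphate proteoglycan, averaged 7.52 ± 3.51 in roxadustat mice and 1.42 ± 0.271 FPKM in control mice. Rpl24, a ribosomal protein gene with 2 tested processed copies at 95% identity or more, averaged 3.72 ± 1.82 in roxadustat mice and 0.496 ± 0.177 FPKM in control mice. Reads of Rpl24 and its copies cannot be assigned with certainty. Of these genes, Prelp kept its call under all 19 alternative fits of the first set, Mmp12 lost it with voom on recovered reads, and Sfrp5, Plppr4, Rpl24, Gpc1 and Folh1 lost it with the PCOS vehicle libraries in the fit. Folh1 also lost it without mouse 809 or 778. Mest and Serpina3b lost their calls with no filter on low values, with the PCOS vehicle libraries, and with any 1 of 8 mice left out, mouse 764 being the exception, and Serpina3b also with voom. Without mice 782, 778 and 789 together, a choice made after seeing the data, none of these rises was called.

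**Figure D2:**
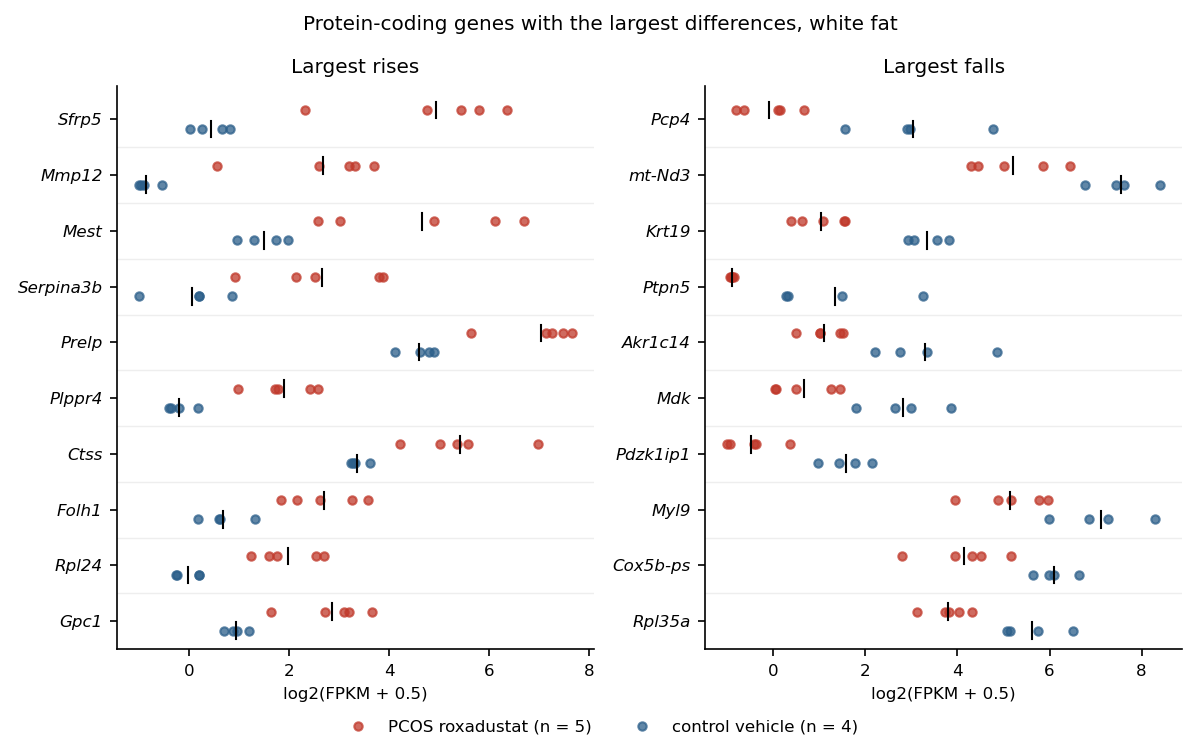
Level on the log2(FPKM + 0.5) scale (horizontal axis) of the 10 protein-coding genes with the largest rises (left) and the 10 with the largest falls (right) among called genes whose arms do not overlap. Each point is 1 mouse, PCOS roxadustat in red (n = 5) above control vehicle in blue (n = 4), and black ticks are means. In every gene drawn the red and blue points are separate, as the rule for choosing them required.

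The 10 largest falls, chosen in the same way, were Pcp4, mt-Nd3, Krt19, Ptpn5, Akr1c14, Mdk, Pdzk1ip1, Myl9, Cox5b-ps and Rpl35a. Krt19 (ENSMUSG00000020911, chromosome 11, 100031636 to 100039491, mm39), a keratin of simple epithelia and mesothelium, had 1.63, 1.04, 0.798, 2.45 and 2.41 FPKM in roxadustat mice and 7.16, 7.89, 11.2 and 13.6 FPKM in control mice. All roxadustat values lay below all control values, the log2 difference was -2.30 (SE 0.28, adjusted p = 0.00517), and PCOS vehicle mice averaged 1.32 ± 0.653 FPKM. Pcp4, a modulator of calmodulin, had 0.581, 0.0725, 1.09, 0.611 and 0.143 FPKM in roxadustat mice and 7.30, 6.95, 2.43 and 26.6 FPKM in control mice (log2 difference -3.15, adjusted p = 0.0168), with control mouse 802 the highest. Ptpn5, a tyrosine phosphatase best known from neurons, stayed at or below 0.0509 FPKM in roxadustat mice and had 2.30, 0.712, 0.756 and 9.05 FPKM in control mice. Mdk, the growth factor midkine, averaged 1.22 ± 0.795 in roxadustat mice and 7.56 ± 4.67 FPKM in control mice (SD, n = 5 and 4). Pdzk1ip1, a membrane-associated protein of epithelia, averaged 0.266 ± 0.319 in roxadustat mice and 2.62 ± 1.06 FPKM in control mice. Cox5b-ps, which the files annotate as protein-coding although its symbol names a pseudogene, averaged 19.7 ± 10.6 in roxadustat mice and 70.0 ± 20.9 FPKM in control mice. Myl9, a smooth muscle myosin light chain, averaged 39.1 ± 18.9 in roxadustat mice and 162 ± 108 FPKM in control mice. In whole tissue, fewer cells of a type and less RNA per cell cannot be told apart. The 9 smooth muscle and pericyte markers had a median log2 difference of -0.86 with none called. Their summed level ranged from 98.5 to 303 FPKM in roxadustat mice and from 149 to 600 FPKM in control mice, and their part in the fall of Myl9 was not tested. Krt19 and Pdzk1ip1 kept their calls under all 19 alternative fits of the first set, Pcp4 lost its call with voom (adjusted p = 0.0509), and Myl9 lost its call without any 1 of roxadustat mice 767, 795 and 809 or control mice 778, 779 and 802. Myl9 also lost it with no filter on low values, with the PCOS vehicle libraries in the fit and with the gene length trend removed. Ptpn5 lost its call in 8 of the 19 fits, Cox5b-ps in 7 and Mdk in 6.

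Collagen and matrix genes had mostly higher values, and those that changed all rose. Of 38 tested 13 were called higher and 0 lower, against 3.14% higher over all genes, and their median log2 difference was 0.71, where all genes tested had 0.02. The called members were Mmp12, Prelp, Col6a1, Col5a3, Col5a2, Col15a1, Col6a2, Timp3, Lox, Col5a1, Col1a1, Col4a1 and Col4a2, which include fibril collagens, microfibril collagens and the basement membrane collagens of type IV. Col6a1 (ENSMUSG00000001119, chromosome 10, 76544626 to 76562002, mm39), a chain of the microfibril collagen that surrounds adipocytes, had 63.5, 104, 119, 91.3 and 137 FPKM in roxadustat mice and 34.1, 54.1, 43.4 and 41.6 FPKM in control mice (log2 difference 1.21, SE 0.22, adjusted p = 0.0208). Col1a1, the main chain of type I collagen, had 28.9, 85.7, 50.4, 48.4 and 85.1 FPKM in roxadustat mice and 14.4, 21.9, 16.1 and 28.4 FPKM in control mice (log2 difference 1.48, adjusted p = 0.0298). Mouse 764 was the lowest roxadustat mouse in both genes, and in Col1a1 it lay just above control mouse 802. PCOS vehicle mice averaged 84.4 ± 46.2 FPKM for Col6a1 and 41.4 ± 30.7 FPKM for Col1a1. Not every matrix gene was higher, since 8 members had lower values, such as Lum with a log2 difference of -0.97 (adjusted p = 0.154). The summed level of the list was 1142 to 2495 FPKM in roxadustat mice and 840 to 1137 FPKM in control mice.

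Among the adipose progenitor and fibroblast markers, which share Col1a1 with that list, 2 of 14 were called, Col1a1 and Dpt. Both were higher, beside 3.14% called higher over all genes, and the median log2 difference of these markers was 0.07. The summed level of these markers was 259 to 450 FPKM in roxadustat mice and 175 to 279 FPKM in control mice. The count of called matrix genes was 2 without roxadustat mouse 809, 3 without mouse 795, 5 without mouse 767, and 2 without control mouse 778. It was 6 without control mouse 779 and also without mouse 802, and 20 without roxadustat mouse 764. After the gene length trend was removed 14 matrix genes were called higher, and without the 3 libraries of few weakly covered genes (782, 778 and 789) 0 were higher and 1 was lower.

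Macrophage genes had higher values in 15 of 16 markers, with a median log2 difference of 0.97, and 2 passed the test, both higher, against 3.14% higher over all genes. Ctss, a lysosomal protease of antigen-presenting cells, had 18.03, 125.5, 32.0, 40.4 and 47.0 FPKM in roxadustat mice and 9.18, 8.99, 9.46 and 11.8 FPKM in control mice (log2 difference 2.06, SE 0.42, adjusted p = 0.0265). Cd68, a glycoprotein of macrophage lysosomes, had 10.4, 67.1, 13.7, 17.2 and 23.9 FPKM in roxadustat mice and 6.14, 5.85, 5.92 and 4.26 FPKM in control mice (log2 difference 1.84, adjusted p = 0.0376). Mouse 767 was the highest roxadustat mouse in both genes, and the arms did not overlap in either. Itgax, the CD11c integrin of dendritic cells and inflammatory macrophages, was named after its values were seen and averaged 3.26 ± 1.88 in roxadustat mice and 0.568 ± 0.236 FPKM in control mice (adjusted p = 0.0343). Gpnmb, a glycoprotein of lipid-laden macrophages, averaged 15.2 ± 19.0 in roxadustat mice and 0.597 ± 0.404 FPKM in control mice without passing (adjusted p = 0.0685), and Adgre1, which encodes the F4/80 antigen, averaged 11.5 ± 11.3 in roxadustat mice and 2.33 ± 0.950 FPKM in control mice (adjusted p = 0.0598). The complement component genes C1qa, C1qb and C1qc of the same list had log2 differences of 0.19, 0.89 and 0.53. Summed over the list, the level was 311 to 1332 FPKM in roxadustat mice, 290 to 573 FPKM in PCOS vehicle mice and 189 to 300 FPKM in control mice. No macrophage marker was called without roxadustat mouse 795 or 809 or without control mouse 778, 779 or 802, each left out alone, and none with the PCOS vehicle libraries in the fit. There were 7 calls without roxadustat mouse 764 and 5 under scaling by total reads.

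Ighm, the constant region of immunoglobulin M, was the 1 called gene among 15 tested T, NK and B cell markers, a share near the 5.79% of all genes. It had 162, 209, 416, 195 and 335 FPKM in roxadustat mice and 61.3, 51.4, 30.8 and 79.4 FPKM in control mice (log2 difference 2.22, adjusted p = 0.0123), while the list had a median of 0.05. Neutrophil and mast cell markers (6 tested) had no call.

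Genes of adipocyte identity moved in both directions. Of 21 tested, 5 were called higher (Sfrp5, Lep, Lpin1, Rarres2 and Dpt) and 1 lower (Adig), against 3.14% higher and 2.65% lower over all genes, with a median log2 difference of 0.10. Lep (ENSMUSG00000059201, chromosome 6, 29060219 to 29073876, mm39), the hormone leptin, had 221, 279.8, 465, 361 and 535 FPKM in roxadustat mice and 115, 132, 124 and 109 FPKM in control mice. The arms did not overlap, and the control mice lay close together (log2 difference 1.56, SE 0.26, adjusted p = 0.0162). PCOS vehicle mice averaged 388 ± 241 FPKM. Adig, which encodes adipogenin, had 244, 142, 79.5, 151 and 116 FPKM in roxadustat mice and 277, 266, 282 and 327 FPKM in control mice (log2 difference -1.06, adjusted p = 0.0489). Adiponectin (Adipoq), an adipokine that raises insulin sensitivity, averaged 1454 ± 294 in roxadustat mice and 1365 ± 321 FPKM in control mice, a log2 difference of 0.10 (SE 0.32, adjusted p = 0.879). Lep was also the 1 called member of the 12 adipocyte markers, whose median was 0.15 and whose summed level was 7761 to 21342 FPKM in roxadustat mice and 17638 to 23663 FPKM in control mice. Without roxadustat mouse 767, 795 or 809, or control mouse 778 or 779, each left out alone, 2 identity genes were called higher, and Adig lost its call once the gene length trend was removed. With the PCOS vehicle libraries in the fit no identity gene was called.

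Lipid synthesis genes had mostly lower values that did not pass. In the list of fatty acid and triglyceride synthesis 19 of 24 members had lower values in roxadustat mice, with a median of -0.53, and the 1 called gene was higher, a share near the 5.79% of all genes. Over the leave-one-out fits 0 to 8 members were called lower, with 8 without roxadustat mouse 764. Without mice 782, 778 and 789 together, a choice made after seeing the data, the median was -0.17. Lpin1, a phosphatidate phosphatase on the way to triglyceride, had 22.7, 31.7, 30.3, 31.3 and 28.0 FPKM in roxadustat mice and 17.6, 18.4, 18.9 and 12.0 FPKM in control mice (log2 difference 0.78, adjusted p = 0.0272). Elovl6, which elongates fatty acids, had 51.9, 25.8, 6.01, 8.47 and 18.7 FPKM in roxadustat mice and 82.0, 46.7, 45.1 and 59.7 FPKM in control mice. Roxadustat mouse 764 reached the control range, and the log2 difference of -1.73 had an adjusted p of 0.07. PCOS vehicle mice averaged 8.402 ± 6.42 FPKM. Fatty acid synthase (Fasn) averaged 533 ± 230.2 in roxadustat mice and 717 ± 186 FPKM in control mice, and stearoyl-CoA desaturase (Scd1) averaged 3438 ± 1258 in roxadustat mice and 3965 ± 906 FPKM in control mice, with adjusted p values of 0.424 and 0.771. Cpt1a, which admits fatty acids to mitochondria, was the 1 called member of 25 in fatty acid uptake and oxidation and averaged 7.51 ± 2.63 in roxadustat mice and 3.26 ± 0.492 FPKM in control mice (adjusted p = 0.0495, with arms that overlapped). This is a share near that of all genes, and Cpt1a kept its call in 7 of the 19 alternative fits of the first set and lost it with the gene length trend removed. None of 19 lipolysis and lipid droplet genes passed. Perilipin 1 (Plin1) averaged 389 ± 81.2 in roxadustat mice and 247 ± 78.2 FPKM in control mice (adjusted p = 0.136).

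**Figure D3:**
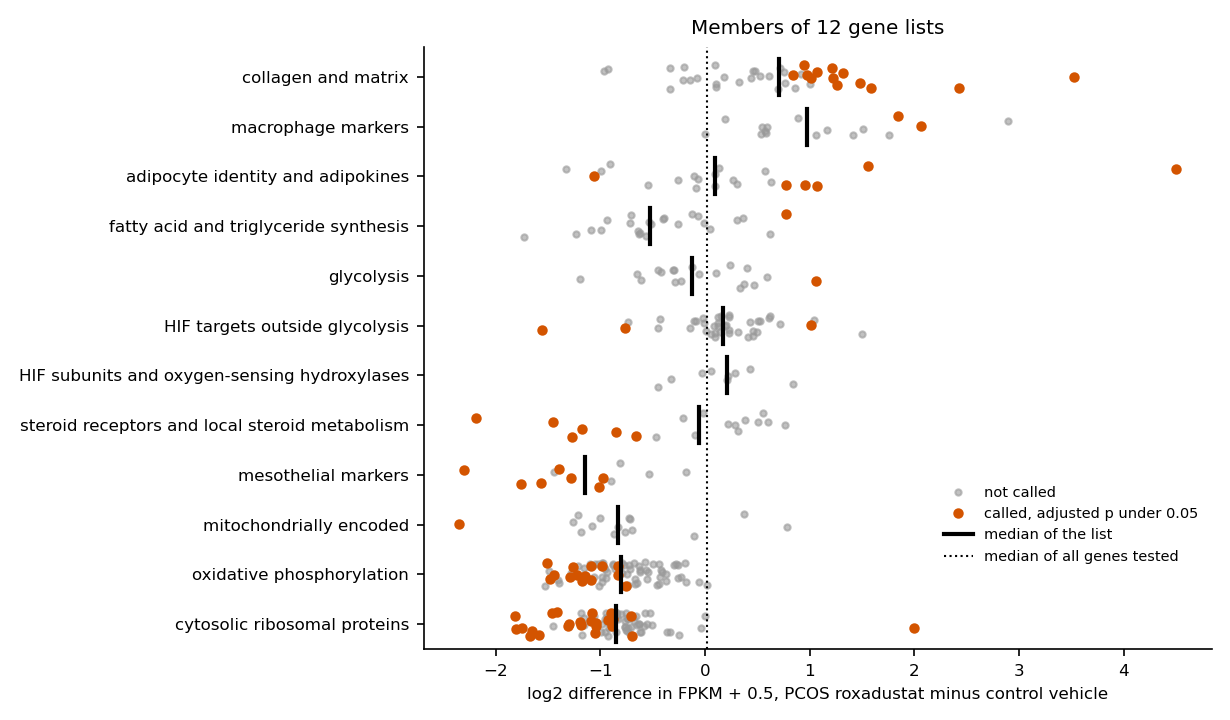
Log2 difference, PCOS roxadustat minus control vehicle (horizontal axis), for the tested members of 12 gene lists, with 1 point for each gene, called genes in orange and the list's median as a black bar. Matrix members lie mostly right of the dotted line at the median of all genes, 0.02, and ribosomal protein and oxidative phosphorylation members lie nearly all left of it, with Rpl24 at 1.99 the called exception.

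Targets of HIF, the factor that roxadustat stabilises, had mostly higher values, and calls at a share near that of all genes. Of 40 HIF target genes outside glycolysis 30 had higher values, 1 was called higher and 2 lower, beside 5.79% called of all genes, and the median log2 difference was 0.17. Scaling by total reads called 5 higher and 2 lower, and leaving out roxadustat mouse 764 called 4 higher and 4 lower. Lox, which cross-links collagen, averaged 15.1 ± 4.84 in roxadustat mice and 7.004 ± 1.11 FPKM in control mice (log2 difference 1.02, adjusted p = 0.0285). Plod2, a collagen lysyl hydroxylase, had 1.49, 1.66, 2.18, 1.14 and 1.01 FPKM in roxadustat mice and 5.01, 3.07, 4.86 and 10.02 FPKM in control mice (log2 difference -1.56, adjusted p = 0.0207), and PCOS vehicle mice averaged 1.17 ± 0.592 FPKM. Higd1a, a mitochondrial protein of the hypoxia response with 1 tested processed copy, averaged 13.4 ± 2.55 in roxadustat mice and 23.3 ± 6.35 FPKM in control mice (adjusted p = 0.045). All roxadustat values of Plod2 and Higd1a lay below the control values. Of the 19 alternative fits of the first set, Higd1a lost its call in 10, Lox in 9 and Plod2 in 4.

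Other well-known HIF targets did not pass the test. Vegfa, the vascular growth factor, averaged 39.7 ± 6.75 in roxadustat mice and 42.8 ± 16.2 FPKM in control mice, a log2 difference of -0.02 (SE 0.28). Bnip3, a mitophagy receptor, had 80.6, 87.7, 105, 101 and 96.4 FPKM in roxadustat mice and 68.2, 90.5, 99.9 and 97.9 FPKM in control mice. The log2 difference of Bnip3 was 0.09 (SE 0.16), and that of Ndrg1, a stress-response gene, was 0.01 (SE 0.16). Adm, the vasodilator adrenomedullin, had a log2 difference of 0.32 (SE 0.23), and Slc2a1, the glucose transporter GLUT1, of 0.53 (SE 0.19). The hydroxylase gene Egln3 had 4.49, 2.28, 1.83, 1.94 and 1.999 FPKM in roxadustat mice and 2.78, 3.69, 4.499 and 2.99 FPKM in control mice (log2 difference -0.45, SE 0.24), and PCOS vehicle mice averaged 1.39 ± 0.512 FPKM. Among 9 HIF subunit and hydroxylase genes none was called. Egln1, the main HIF prolyl hydroxylase, came closest with 27.9, 28.3, 21.02, 27.3 and 30.4 FPKM in roxadustat mice and 19.1, 18.6, 20.9 and 20.4 FPKM in control mice (log2 difference 0.43, adjusted p = 0.07). Hif1a and Epas1, the oxygen-regulated subunits, had log2 differences of 0.22 and 0.05. In glycolysis 1 of 19 members passed, a share near the 5.79% of all genes. It was Pfkfb4, a regulator of fructose bisphosphate, which averaged 5.25 ± 1.14 in roxadustat mice, 4.90 ± 2.25 in PCOS vehicle mice and 2.24 ± 0.399 FPKM in control mice (adjusted p = 0.0173). Its paralog Pfkfb3 averaged 91.0 ± 27.9 in roxadustat mice and 59.9 ± 20.0 FPKM in control mice without passing. A smaller response could have been missed. In simulated data with 5 and 4 libraries 37.8% of 98 2-fold changes and 79% of 100 4-fold changes were called. The simulation held fewer changed genes than the 897 called here, and no gene length trend. Its shares therefore do not carry over to these data.

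Of 18 tested steroid receptor and steroid metabolism genes 6 were called, each of them lower, against 2.65% lower over all genes, namely Greb1, Akr1c14, Cyp7b1, Esr1, Pgr and Star. The list's median was -0.06, and it was 0.05 under scaling by total reads, so that its sign depended on the scaling. Scaling by total reads called 2 members higher and 5 lower. Esr1 (ENSMUSG00000019768, chromosome 10, 4561593 to 4955614, mm39), the oestrogen receptor alpha, had 2.59, 2.15, 3.68, 3.39 and 2.09 FPKM in roxadustat mice and 3.98, 5.56, 6.01 and 5.84 FPKM in control mice (log2 difference -0.85, SE 0.19, adjusted p = 0.0335). Pgr (ENSMUSG00000031870, chromosome 9, 8899834 to 8968612, mm39), the progesterone receptor and a known oestrogen target, had 0.0548, 0.00435, 0.0234, 0.0820 and 0.0301 FPKM in roxadustat mice and 1.06, 0.662, 0.239 and 3.01 FPKM in control mice (log2 difference -1.45, adjusted p = 0.0392). In both genes the arms did not overlap, and PCOS vehicle mice averaged 2.59 ± 0.788 FPKM for Esr1 and 0.0339 ± 0.0633 FPKM for Pgr. Greb1, another oestrogen-induced gene, was at or below 0.0194 FPKM in roxadustat mice and had 0.246, 0.248, 0.223 and 0.537 FPKM in control mice (adjusted p = 0.0204). Akr1c14, a hydroxysteroid dehydrogenase, had 2.37, 0.919, 2.25, 1.51 and 1.53 FPKM in roxadustat mice and 6.22, 9.56, 4.15 and 28.4 FPKM in control mice (log2 difference -2.18, adjusted p = 0.026). Control mouse 802 was the highest in Pgr, Greb1 and Akr1c14. Cyp7b1, an oxysterol hydroxylase, averaged 0.240 ± 0.101 in roxadustat mice and 1.46 ± 1.06 FPKM in control mice. Star, which brings cholesterol into mitochondria for steroid synthesis, averaged 0.778 ± 0.538 in roxadustat mice and 2.37 ± 1.04 FPKM in control mice, with roxadustat mouse 782 inside the control range.

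The ovary and reproductive tract markers had 7 tested members, all with lower values and Star alone called, beside 2.65% called lower over all genes. Their summed level was 2.99 to 5.46 FPKM in roxadustat mice, 3.34 to 6.64 FPKM in PCOS vehicle mice and 6.42 to 21.9 FPKM in control mice, and their part in the steroid genes was not tested. No steroid gene of the list was called without roxadustat mouse 795 or 809, and 1 was called without mouse 767 or control mouse 779. Without control mouse 778 there were 3 calls. Esr1, Pgr and Star were named after their values were seen.

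Mesothelial markers had lower values throughout. All 12 had lower values in roxadustat mice, 7 were called (Krt19, Bnc1, Krt18, Msln, Krt7, Krt8 and Wt1), against 2.65% lower over all genes, and the median log2 difference was -1.15. Krt18, the partner keratin of Krt8, had 0.385, 0.388, 0.418, 0.847 and 0.817 FPKM in roxadustat mice and 3.04, 2.97, 1.38 and 2.06 FPKM in control mice (log2 difference -1.40, adjusted p = 0.0162). Bnc1, a zinc finger factor of mesothelium and other epithelia, had 0.164, 0.175, 0.316, 0.158 and 0.298 FPKM in roxadustat mice and 0.973, 0.930, 0.719 and 1.22 FPKM in control mice (log2 difference -1.01, adjusted p = 0.0105). Msln, which encodes mesothelin, averaged 1.49 ± 0.640 in roxadustat mice and 6.42 ± 2.78 FPKM in control mice, and Wt1, a transcription factor of mesothelium, averaged 0.646 ± 0.313 in roxadustat mice and 2.41 ± 1.205 FPKM in control mice. The summed level of the list was 18.4 to 35.7 FPKM in roxadustat mice, 20.5 to 39.9 FPKM in PCOS vehicle mice and 44.9 to 88.2 FPKM in control mice. Roxadustat and control mice therefore did not overlap in this sum. The number called was 4 to 7 over the leave-one-out fits, with 4 without roxadustat mouse 795 and also without control mouse 779, and 3 with the PCOS vehicle libraries in the fit. The mammary and other epithelial markers, which share Krt8, Krt18 and Krt19 with this list, had 5 tested members, and those 3 were the called ones. Krt17, a keratin of basal epithelium, was listed at 0 in all 9 libraries.

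Ribosomal protein and oxidative phosphorylation genes had lower values almost throughout. Of 79 cytosolic ribosomal protein genes 78 had lower values, 23 were called lower and 1 (Rpl24) higher, against 2.65% lower and 3.14% higher over all genes, and the median log2 difference was -0.86. Of 76 nuclear oxidative phosphorylation genes 75 had lower values, 14 were called lower, against the same 2.65%, and none higher, and the median was -0.80. The 15 mitochondrially encoded genes had a median of -0.83 with 1 call, mt-Nd3, a subunit of complex I, which had 86.0, 21.4, 57.1, 19.1 and 31.8 FPKM in roxadustat mice and 172, 108, 197 and 339 FPKM in control mice (log2 difference -2.35, adjusted p = 0.0229). Rpl35a, of the large ribosomal subunit, had 19.3, 13.7, 8.18, 15.9 and 12.8 FPKM in roxadustat mice and 35.0, 53.1, 33.4 and 90.3 FPKM in control mice (log2 difference -1.82, SE 0.31, adjusted p = 0.0167). Rps28, of the small subunit, had 24.5, 16.0, 16.0, 19.2 and 17.2 FPKM in roxadustat mice and 55.1, 70.2, 36.1 and 132 FPKM in control mice (log2 difference -1.81, adjusted p = 0.0167). Control mouse 802 held the highest value in all 3 genes. Ndufa3, a subunit of complex I, averaged 39.8 ± 13.4 in roxadustat mice and 108 ± 33.6 FPKM in control mice (adjusted p = 0.0198), and Atp5l, a subunit of ATP synthase, averaged 13.5 ± 3.68 in roxadustat mice and 31.5 ± 10.5 FPKM in control mice (adjusted p = 0.023). PCOS vehicle mice averaged 34.0 ± 22.3 FPKM for Rps28 and 64.2 ± 45.2 FPKM for Ndufa3. Rps28, Rpl35a and Atp5l each have 3 processed copies at 95% identity or more among the pseudogenes tested, so their own share of reads is uncertain. Copies that were not tested were not counted.

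These genes are short, with a median length of 1770 bases for the ribosomal protein list. With the length trend removed in each library the medians were -0.72 for ribosomal protein genes, with 25 called lower, and -0.64 for oxidative phosphorylation genes, with 15 called lower. Without mice 782 and 802 together they were -0.52 with 8 called and -0.45 with 2 called. The lower values of ribosomal protein genes came to 45 calls without roxadustat mouse 764 and 2 without mouse 809, and those of oxidative phosphorylation to 41 and 0. With the PCOS vehicle libraries in the fit no member of either list was called. The mitochondrially encoded share of reads, 9.42% in roxadustat mice and 18.02% in control mice on average, moved with both lists, and its part in them was not tested.

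Of all genes tested 22 were called under all 19 alternative fits of the first set, 9 of them protein-coding, and those not yet described were named for this reason. Csrp2, a LIM domain protein, had 5.43, 4.03, 2.80, 3.42 and 3.68 FPKM in roxadustat mice and 8.93, 12.2, 10.3 and 16.3 FPKM in control mice (log2 difference -1.50, adjusted p = 0.0105). Rspo1, a secreted amplifier of Wnt signalling, had 2.59, 1.63, 2.58, 4.05 and 3.200 FPKM in roxadustat mice and 8.25, 9.75, 6.73 and 12.8 FPKM in control mice (log2 difference -1.58, adjusted p = 0.0123). Cnnm2, a magnesium transport protein, had 8.36, 10.9, 11.9, 12.4 and 13.1 FPKM in roxadustat mice and 5.48, 5.94, 4.72 and 4.62 FPKM in control mice (log2 difference 1.05, adjusted p = 0.0122). The arms did not overlap in these 3 genes, of which Cnnm2 was higher and Csrp2 and Rspo1 lower in roxadustat mice. Optc, the matrix protein opticin, averaged 0.584 ± 0.153 in roxadustat mice and 2.34 ± 0.897 FPKM in control mice. Optc lies beside Prelp in the mouse genome and was lower while Prelp was higher. Arhgef25 averaged 2.21 in roxadustat mice and 5.82 FPKM in control mice. Fbxw17 averaged 2.68 in roxadustat mice and 5.90 FPKM in control mice (limma adjusted p = 0.0162 for either gene).

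The acute phase genes Lbp and Serpina3n were named after their values were seen, and no wider list of such genes was examined. Lbp, which binds bacterial lipopolysaccharide, had 17.9, 39.1, 54.1, 32.4 and 65.0 FPKM in roxadustat mice and 7.91, 11.7, 14.1 and 11.1 FPKM in control mice (log2 difference 1.75, adjusted p = 0.0209). Serpina3n, a protease inhibitor with close paralogs, had 96.2, 156, 243, 187 and 274 FPKM in roxadustat mice and 44.2, 69.6, 84.8 and 31.0 FPKM in control mice (log2 difference 1.74, adjusted p = 0.0253). Both genes were higher in every roxadustat mouse than in any control mouse, and PCOS vehicle mice averaged 43.4 ± 28.1 FPKM for Lbp and 180.4 ± 96.5 FPKM for Serpina3n. Of the 19 alternative fits of the first set, Lbp lost its call in 4 and Serpina3n in 6. For both these included the fit with the PCOS vehicle libraries and those without mouse 809 or mouse 778.

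Some smaller groups held a few called genes, beside 3.14% called higher over all genes. With the PCOS vehicle libraries in the fit no member of the stress, complement or insulin list was called. The unfolded protein and stress list had 3 of 23 called, all higher, and 0 to 4 over the leave-one-out fits. Hspa5, the main chaperone of the endoplasmic reticulum, had 46.5, 55.2, 55.5, 64.4 and 59.2 FPKM in roxadustat mice and 34.2, 29.2, 30.6 and 36.4 FPKM in control mice (log2 difference 0.77, adjusted p = 0.0177). Sel1l and Hyou1, a ubiquitin ligase adaptor and a chaperone of that compartment, had log2 differences of 0.80 and 0.65, and Hyou1 lost its call with the gene length trend removed. The complement list had 2 of 17 called, both higher, and 0 to 6 over the leave-one-out fits. C4b, the fourth complement component, had 35.1, 69.1, 104, 97.7 and 122 FPKM in roxadustat mice and 19.2, 34.9, 25.1 and 30.9 FPKM in control mice, and C6, of the membrane attack complex, had a log2 difference of 1.58 (adjusted p = 0.0432). Beside them Cfd, the adipocyte-made complement factor D, averaged 6433 ± 4319 in roxadustat mice and 13068 ± 2537 FPKM in control mice without passing (adjusted p = 0.288). Insulin signalling had 2 of 26 called, both higher, which is close to the share of all genes called in either direction, and 0 to 6 were called higher over the leave-one-out fits. Grb14, an inhibitor of the insulin receptor, had 1.84, 3.89, 4.05, 8.81 and 6.84 FPKM in roxadustat mice and 0.994, 0.681, 0.844 and 1.74 FPKM in control mice (log2 difference 1.73, adjusted p = 0.0272), and Irs2, an insulin receptor substrate, had a log2 difference of 1.28 (adjusted p = 0.0376) with arms that overlapped. Ngfr, a neurotrophin receptor, was the 1 called of 12 Schwann cell and nerve markers, beside 2.65% called lower over all genes. Ngfr averaged 1.19 ± 0.900 in roxadustat mice and 4.05 ± 1.48 FPKM in control mice. Among 24 interferon-induced genes none passed, although 20 had lower values and the median was -0.18, with Bst2, a membrane protein that tethers viruses, at 41.2 ± 16.4 in roxadustat mice and 77.9 ± 11.9 FPKM in control mice (adjusted p = 0.0582). No member passed among 13 thermogenic, 22 cell cycle, 20 immediate early, 14 endothelial and 6 brown adipocyte genes.

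Processed pseudogenes carry few bases of their own, since most are near copies of a coding message. Of 522 tested 510 matched a coding transcript of another gene by blastn, and the median identity was 99.1% for the 54 lower, 98.9% for the 21 higher and 99.0% for the 447 not called. The 3 pairs printed here are among those whose values carry the results below. Stretches of 171 bases are shown 5′ to 3′ in lower case from GENCODE M21 (GRCm38), with bases that differ between pseudogene and coding sequence in capitals. Gm10335 lies on chr10:14523240-14523410 (plus strand) and matches Rpl23a, Rpl34-ps1 on chr6:71124656-71124826 (plus strand) and matches Rpl34, and Tpi-rs11 on chr6:127183548-127183718 (minus strand) and matches Tpi1, the glycolytic triose phosphate isomerase. A further pair, Gm14303 and Rps29, is identical over the 171 coding bases compared and is not printed.
Gm10335: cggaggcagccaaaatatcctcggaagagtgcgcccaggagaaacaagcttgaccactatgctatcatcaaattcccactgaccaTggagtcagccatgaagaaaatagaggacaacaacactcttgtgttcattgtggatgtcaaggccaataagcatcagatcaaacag
Rpl23a: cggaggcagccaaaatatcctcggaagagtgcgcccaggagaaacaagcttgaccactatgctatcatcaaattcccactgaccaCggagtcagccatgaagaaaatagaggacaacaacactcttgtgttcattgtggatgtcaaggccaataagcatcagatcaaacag
Rpl34-ps1: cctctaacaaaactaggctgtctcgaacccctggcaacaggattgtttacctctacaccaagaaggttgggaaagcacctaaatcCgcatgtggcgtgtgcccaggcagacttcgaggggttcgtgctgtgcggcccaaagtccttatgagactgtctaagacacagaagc
Rpl34: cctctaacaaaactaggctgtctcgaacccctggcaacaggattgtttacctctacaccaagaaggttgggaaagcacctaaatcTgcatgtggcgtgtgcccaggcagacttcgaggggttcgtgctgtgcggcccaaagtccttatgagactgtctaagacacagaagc
Tpi-rs11: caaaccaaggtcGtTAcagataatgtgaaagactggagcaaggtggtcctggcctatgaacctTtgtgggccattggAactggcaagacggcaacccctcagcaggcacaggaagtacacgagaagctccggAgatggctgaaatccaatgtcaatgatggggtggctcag
Tpi1: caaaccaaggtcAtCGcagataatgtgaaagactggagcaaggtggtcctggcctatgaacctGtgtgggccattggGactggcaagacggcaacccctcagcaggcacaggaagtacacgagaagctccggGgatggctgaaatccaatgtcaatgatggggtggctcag

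Within these stretches Gm10335 and Rpl34-ps1 each differ from their coding match at 1 base and Tpi-rs11 at 6. Over all coding bases compared the counts are 1 of 468 for Gm10335, 2 of 354 for Rpl34-ps1 and 7 of 310 for Tpi-rs11. A read that covers none of these bases cannot be assigned to the one gene or the other from its sequence.

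The smallest p of all genes tested belonged to processed pseudogenes of ribosomal protein genes. Gm10335 (ENSMUSG00000071532) had 6.19, 5.01, 3.42, 4.97 and 4.47 FPKM in roxadustat mice and 55.7, 61.3, 32.6 and 51.7 FPKM in control mice. Gm10335 overlaps Adgrg6, which lies on the other strand, so reads of that gene could be counted in it. The arms were far apart, with a log2 difference of -3.24 (SE 0.20, limma adjusted p = 9.13e-05). Rpl34-ps1 (ENSMUSG00000068396) had 10.6, 11.7, 10.5, 8.34 and 11.8 FPKM in roxadustat mice and 54.1, 57.9, 96.5 and 79.1 FPKM in control mice (log2 difference -2.68, SE 0.18, adjusted p = 0.000116). Rpl30-ps10 (ENSMUSG00000083411) on the X chromosome had 4.17, 7.51, 2.19, 4.46 and 3.91 FPKM in roxadustat mice and 50.3, 45.8, 34.8 and 26.2 FPKM in control mice (log2 difference -3.05, adjusted p = 0.00102). These 3 kept their calls under all 19 alternative fits of the first set. Their coding matches had smaller differences and did not pass the test. Rpl23a averaged 103 ± 18.5 in roxadustat mice and 129 ± 26.1 FPKM in control mice (log2 difference -0.33, adjusted p = 0.308), Rpl34 had a log2 difference of -0.89 (adjusted p = 0.126) and Rpl30 of -0.86 (adjusted p = 0.0592). Gm10335 was also summed with its coding gene and the other tested copies. This Rpl23a family took 78.7 to 131 CPM in roxadustat mice and 134 to 223 CPM in control mice. CPM here is scaled to the library size implied by the FPKM values, not to the reads. The arms did not overlap on this scale, with roxadustat mouse 764 highest at 131 CPM and control mouse 789 lowest at 134 CPM. The implied size was 1.36 times the reads in mouse 764 and 1.26 times in mouse 789. Scaled to the reads, mouse 764 therefore lies above mouse 789, and the arms overlap.

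Pseudogenes of ribosomal protein genes made up most of the falls. Of 150 tested 36 were called lower and 2 higher, and of 360 that matched another coding gene 17 were lower and 18 higher. Over all genes 2.65% were called lower and 3.14% higher. Among the 54 lower pseudogenes the coding match was itself called lower in 15 and higher in none. For the 447 pseudogenes not called it was lower in 46 and higher in 10. Among ribosomal copies it was lower in 14 of the 36 lower ones and in 23 of the 112 not called. Gm2830, a copy of Rps24, had 1.66, 0.483, 0.728, 1.34 and 1.05 FPKM in roxadustat mice and 3.31, 9.67, 6.62 and 40.4 FPKM in control mice (log2 difference -2.79, adjusted p = 0.0246), with mouse 802 setting much of the control mean. Processed pseudogenes together took 0.381 ± 0.0196% of reads in roxadustat mice and 0.459 ± 0.0721% in control mice (SD, n = 5 and 4, two-sided exact permutation p = 0.0317). Without mitochondrially encoded reads in the total the shares were 0.421 ± 0.0308% in roxadustat mice and 0.562 ± 0.0992% in control mice, and they did not overlap (exact permutation p = 0.0159, the smallest possible).

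**Figure D4:**
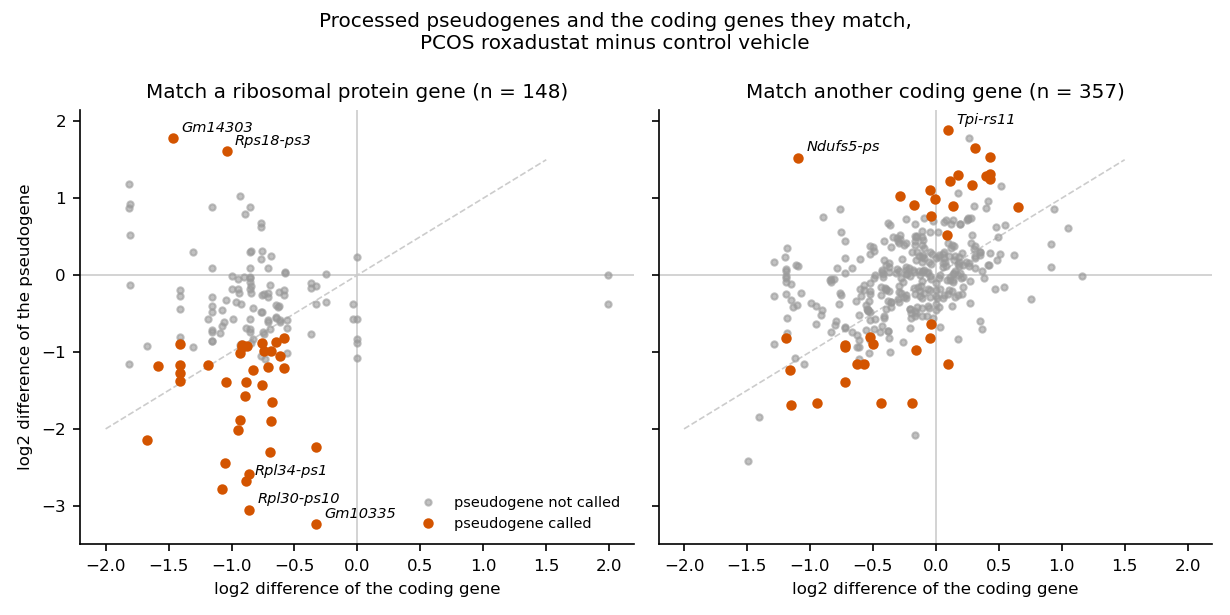
Log2 difference of processed pseudogenes (vertical axis) against that of the coding gene they match (horizontal axis), PCOS roxadustat minus control vehicle, for 148 pseudogenes with a tested ribosomal protein match (left) and 357 with another tested match (right). Each point is 1 pseudogene, called ones in orange, and the dashed line marks equal differences. Gm10335 at -3.24 lies far below the line, and Gm14303, Rps18-ps3 and Ndufs5-ps lie high on the left of 0.

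The 21 pseudogenes that rose had coding matches that mostly did not pass the test. This also held for the 447 pseudogenes not called, with 376 matches tested and not called, 46 lower and 10 higher. Tpi-rs11 (ENSMUSG00000106755) had 28.3, 33.7, 19.1, 24.0 and 28.1 FPKM in roxadustat mice and 6.72, 8.11, 6.74 and 5.53 FPKM in control mice (log2 difference 1.89, SE 0.17, adjusted p = 0.00102). Tpi-rs11 overlaps the noncoding gene 9330179D12Rik, and reads of the pair cannot be told apart with certainty. The arms did not overlap, while Tpi1 itself averaged 155 ± 17.4 in roxadustat mice and 145 ± 22.3 FPKM in control mice (log2 difference 0.10, adjusted p = 0.738). Gm7335, a copy of Scoc, averaged 1.94 ± 0.563 in roxadustat mice and 0.325 ± 0.377 FPKM in control mice, where mice 778 and 789 were listed at 0. In 17 of the 21 the coding match was tested and not called, and in 3 it was called lower.

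In those 3 the copy and its coding gene went opposite ways. Gm14303 (ENSMUSG00000081344) had 86.2, 51.8, 104, 71.2 and 80.2 FPKM in roxadustat mice and 14.9, 27.8, 13.7 and 40.7 FPKM in control mice (log2 difference 1.78, adjusted p = 0.0189). Rps29, whose coding sequence is identical, had 94.0, 82.4, 76.4, 86.7 and 78.4 FPKM in roxadustat mice and 171.0, 231, 162 and 439 FPKM in control mice (log2 difference -1.46, adjusted p = 0.0204). Ndufs5-ps, 99.4% identical to its match over 319 bases, averaged 8.396 ± 2.72 in roxadustat mice and 2.59 ± 1.02 FPKM in control mice, and Ndufs5, a subunit of complex I, averaged 85.2 ± 31.8 in roxadustat mice and 178 ± 56.2 FPKM in control mice. Rps18-ps3, 99.3% identical over 456 bases, averaged 4.99 ± 2.13 in roxadustat mice and 1.22 ± 0.505 FPKM in control mice, and Rps18, of the small ribosomal subunit, averaged 65.4 ± 13.7 in roxadustat mice and 141 ± 62.6 FPKM in control mice. The sum of Gm14303 and Rps29 was 65.9 to 79.9 CPM in roxadustat mice and 115 to 311 CPM in control mice. After removal of the gene length trend 69 processed pseudogenes were called, 40 higher and 29 lower, so the direction of the balance depended on that step. With voom on recovered reads 45 were called, 8 higher and 37 lower.

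**Figure D5:**
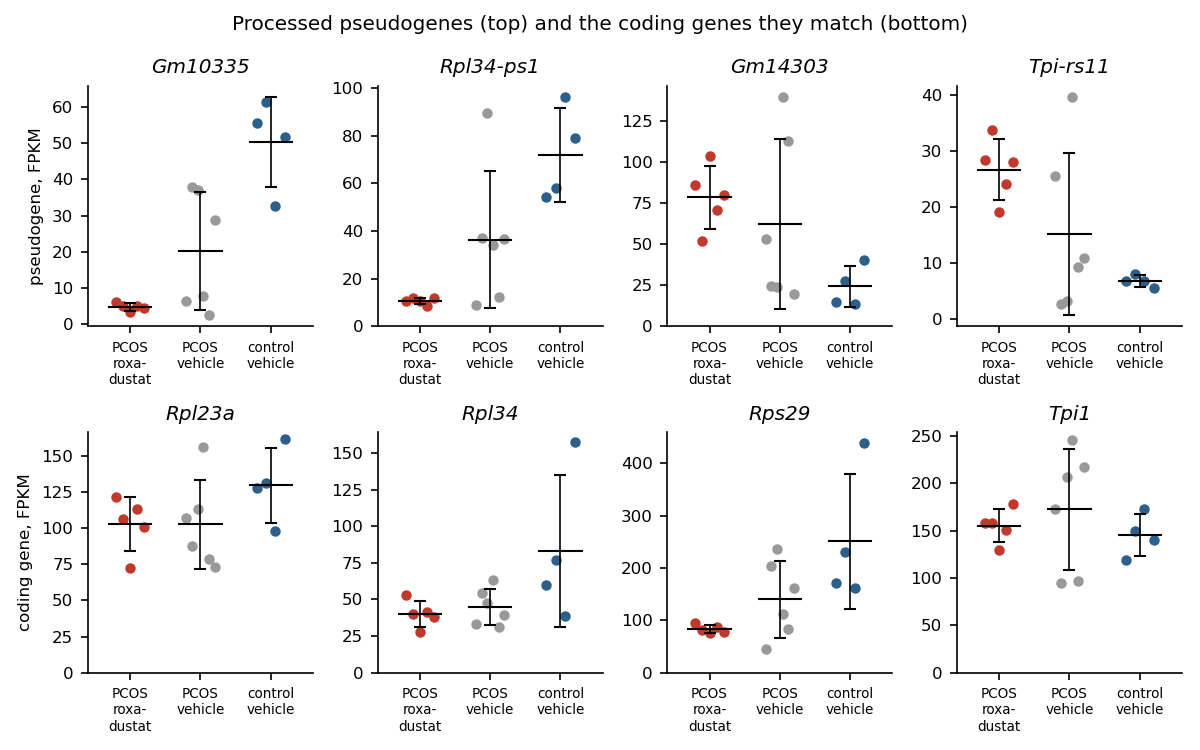
FPKM (vertical axes) of 4 processed pseudogenes (top) and the coding genes they match (bottom) in PCOS roxadustat (red, n = 5), PCOS vehicle (grey, n = 6) and control vehicle (blue, n = 4) mice, with 1 point for each mouse and black bars for mean ± SD. The roxadustat points of Gm10335 sit between 3.42 and 6.19 and the control points between 32.6 and 61.3, while Rpl23a overlaps between the arms.

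PCOS vehicle mice were spread widely for the same pseudogenes, and mouse 822 lay between the roxadustat and control values in each gene given here. For Gm10335 they had 6.52, 38.0, 37.2, 7.89, 2.50 and 28.7 FPKM (mice 770, 773, 785, 796, 814 and 822), so that 3 lay below 8 FPKM and 3 above 28 FPKM. For Rpl34-ps1 they had 8.74, 36.9, 89.4, 34.3, 12.3 and 36.7 FPKM in the same order, and for Tpi-rs11 25.4, 2.78, 3.24, 39.6, 9.24 and 10.8 FPKM. Mice 770 and 814 were near the roxadustat level in both ribosomal copies, and mice 773 and 785 were below every control mouse in Tpi-rs11. The differences in these genes therefore occur between mice of 1 treatment as well as between the arms.

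Among the other kinds of gene 55 of 1185 long noncoding RNAs were called, 13 higher and 42 lower, beside 5.79% called of all genes. Of 12 mitochondrial transfer RNA genes 6 were called, all lower. The transfer RNA gene mt-Tn averaged 63.6 ± 28.7 in roxadustat mice and 259 ± 64.4 FPKM in control mice (log2 difference -2.09, adjusted p = 0.0123). The library share of mitochondrially encoded genes moved the same way, and its part in the lower transfer RNA values was not tested.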

How the data were processed

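PolyA RNA of white fat was sequenced in 15 libraries, 1 per mouse, and 9 entered this comparison. Levels are FPKM values deposited by the authors. Per the submitters' processing notes, CASAVA 1.8, HISAT2 2.0.5 and DESeq2 1.20.0 were used with the mm39 build. The read counter and the annotation release are not given in the sources used here. Per the labels' protocols both a directional and a non-directional library procedure existed, without saying which was used, so overlapping antisense genes cannot be told apart.

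The PCOS vehicle columns of the 2 tables were identical (largest difference 0). This does not show that the roxadustat and control columns, which are in different tables, were scaled alike. The tables were joined on gene ID (26333 and 25633 genes, 24780 in both). FPKM values were whole multiples of 1 read for 100% of values within a tolerance of 0.001, which gave reads per gene and a depth of 14774573 to 18953324 per library. These reads served for the filter (at least 10 reads, scaled to depth, in at least 4 libraries and 15 in all) and for the voom alternative.

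Tests used limma 3.58.1 in R 4.3.3 with a mean-variance trend on log2(FPKM + 0.5), two-sided, with Benjamini-Hochberg adjustment over 15499 genes and a call at 0.05. Fold changes are on that scale, which understates changes of low genes. Single values per library were compared by exact permutation over all splits with scipy 1.17.1. On data simulated from the means and spreads of these genes, 10 of 14972 unchanged genes were called. The simulated noise was independent between genes and held no gene length trend, so this share does not carry over to the real fit. Pseudogenes were matched to coding transcripts of GENCODE M21 (GRCm38) with blastn 2.17.0, by gene ID, and coordinates of the 2 builds were not mixed.

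Named genes were the 10 largest rises and 10 largest falls among coding genes that were called, averaged 1 FPKM or more and had an established symbol and arms that do not overlap, then up to 3 called members of each list, a fixed set of HIF, lipid and adipocyte genes, and the 3 largest rises and falls of called pseudogenes. Genes outside the rule are said to be so or are pathway members or coding matches given for context. The members and lists were chosen with earlier results of these data known. A first set of 19 alternative fits changed the pseudocount, the filter, the scaling, voom, sample weights, robust fitting, the libraries fitted (PCOS vehicle added, or each mouse left out), and 5 more were chosen after seeing the data. The tables hold FPKM, so no count model was fitted and voom took its place.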

Additional observations from a re-analysis of the deposited data

Results flagged for a closer look

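In 17 of 214 groups of 4 or 5 mice examined, 1 mouse lay far from the others by Dixon's 95% limit, and chance flags about 1 in 20 groups. Control mouse 802 accounted for 8, control mouse 789 and roxadustat mouse 764 for 3 each, roxadustat mouse 767 for 2 and roxadustat mouse 782 for 1.

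Among control mice, mouse 802 had the highest Greb1 at 0.537 FPKM (others 0.223 to 0.248), Krt8 at 4.88 FPKM (others 1.74 to 1.97) and Ctss at 11.8 FPKM (others 8.99 to 9.46). It was also highest in Ndufab1 at 22.8 FPKM (others 15.6 to 16.7), Higd1a at 32.8 FPKM (others 19.7 to 20.96), Jund at 48.8 FPKM (others 41.2 to 41.7) and Elovl3 at 6.10 FPKM (others 0.931 to 1.62). Its Cd68 was the lowest at 4.26 FPKM (others 5.85 to 6.14). Mouse 789 was highest in the muscle genes Acta1 at 81.6 FPKM (others 5.96 to 11.3) and Myh1 at 0.104 FPKM (others 0 to 0.0141), and in the cell cycle gene Ccnb2 at 1.30 FPKM (others 0.440 to 0.475).

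Among roxadustat mice, mouse 767 was highest in the macrophage genes Ctss at 125.5 FPKM (others 18.03 to 47.0) and Cd68 at 67.1 FPKM (others 10.4 to 23.9). Mouse 764 was highest in Egln3 at 4.49 FPKM (others 1.83 to 2.28), Serpina1a at 3.02 FPKM (others 0.677 to 1.28) and Apoa1 at 11.6 FPKM (others 0 to 0.386). Mouse 782 was highest in Star at 1.72 FPKM (others 0.393 to 0.664).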

How the results depend on the processing

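None of 64 called genes, named by the rule or after their values were seen, changed its direction in any fit that tested it. Every fit reused the libraries in which these genes had been called, so their direction was largely fixed in advance and this is no independent check. No paired analysis was possible because no mouse number is shared between the arms. The count of 897 called genes was 197 with no filter on low values (of 23762 genes), 79 with the PCOS vehicle libraries in the fit and 2771 with sample quality weights. Among alternatives chosen after seeing the data it was 1814 with a term for the 3 libraries of few weakly covered genes (782, 778 and 789), 289 without these libraries (24 higher, 265 lower) and 378 without mice 782 and 802 together. In the same order protein-coding calls were 140, 61, 2389, 1554, 194 and 268. Processed pseudogene calls were 29, 11, 138, 115 and 48 under the first 5 of these settings and 45 with voom, and calls of other kinds of gene were 28, 7, 244, 145 and 47, and 51 with voom. The cause of these shifts was not tested. Leaving out each mouse in turn gave 100 to 1771 calls over all genes, 61 to 1543 protein-coding, 19 to 96 processed pseudogenes and 20 to 132 other genes. It gave differences of -10.8 to -7.40 percentage points in the mitochondrially encoded share, of -0.101 to -0.0463 points in the pseudogene share, and 1043 to 2092.5 more genes with a read. With 1 mouse fewer the exact permutation p exceeded 0.05 in 7 of 9 cases for either share. Of these 64 called genes, 6 kept their call in every fit of the first set that tested them (18 fits for Bnc1, 19 for the others). With these 6 included, 25 lost it in 3 or fewer. Depth limits genes of a few reads. In simulated data, which held fewer changed genes than were called here, 2-fold changes were mostly missed.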

Other observations

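Skeletal muscle markers had higher values in all 7 tested members, none called, with a median log2 difference of 1.0. Their summed level was 17.7 to 367 FPKM in roxadustat mice and 6.93 to 127 FPKM in control mice, which overlapped. Brown adipocyte markers summed to 27.3 to 394 FPKM in roxadustat mice and 154 to 1321 FPKM in control mice, with 5 of 6 lower and none called.

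Other processed pseudogenes also kept their calls in all 19 alternative fits of the first set. Gm3362 averaged 9.90 FPKM in roxadustat mice and 47.5 FPKM in control mice, Gm12174 averaged 0.482 FPKM in roxadustat mice and 4.33 FPKM in control mice, and Gm4202 averaged 3.85 FPKM in roxadustat mice and 1.25 FPKM in control mice.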
